A study of Homo sapiens with 6 samples.

Results

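PLA2G12A and CACNB1 were the protein-coding genes whose effective length, a mean over their transcripts estimated from the reads, was longer in every library of BT-549 cells grown in adipocyte-conditioned medium (ACM) than in every library grown in unconditioned medium (UCM) by at least 1.3-fold. They were chosen by RSEM's effective length, with a rule that asked for an expected count of at least 100 in all 6 libraries and for the lowest length of one group to be at least 1.3 times the highest of the other. Of 10010 protein-coding genes with that count, 2 met the rule (0.02%), both longer in ACM, and 0 were shorter in ACM (0%). The files list 63140 genes, 20044 of them protein-coding. BT-549 is an established human triple negative breast cancer line, and all 6 libraries came from cells of WT genotype kept for 24 h in ACM (n = 3) or UCM (n = 3). The ACM was medium collected from OP9 mouse stromal cells that had been differentiated into adipocytes. The labels give it as 50% ACM, whereas the methods supplement of the study describes undiluted medium for RNA-seq, so the strength of the medium is uncertain here. The study's methods describe cells grown and lysed in the wells of a plate and do not say whether the wells were seeded from separate cultures, so the p-values measure the spread between these libraries, which may be technical.

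The libraries held between 17135288 and 21053257 expected counts each. The labelled cell type is epithelial, but the epithelial markers CDH1 (0.451 to 1.83 CPM) and EPCAM (0 to 0.0951 CPM) were low or absent, and the mesenchymal marker VIM stood at 2736 to 3554 CPM. The hormone receptor genes ESR1 and PGR had no counts in any library, whereas ERBB2 stood at 61.6 to 75.0 CPM across both groups. Of the adipocyte markers, ADIPOQ, LEP and CIDEC had no counts, PLIN1, FABP4 and LPL had at most 0.0951 CPM, and PPARG stood at 9.24 to 14.2 CPM across both groups.

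A gene usually gives rise to several transcripts that differ in their first exon, internal exons or 3′ end, and a change in which of them is made can alter a protein or its untranslated regions without a change in the amount of RNA. Short-read sequencing sees this only through fragments that fit one transcript better than another. RSEM shares the fragments among the transcripts listed for a gene and reports an effective length, which is the number of positions at which a fragment could start, averaged over the transcripts in proportion to their estimated molecules. A gene's TPM is its expected count divided by this length and scaled to the library. CPM is the count scaled to the total count of the library, adjusted here by a normalization factor for each library (TMM). It is not divided by a length, so a shift in length enters TPM but not CPM.

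PLA2G12A encodes group XIIA phospholipase A2, a secreted enzyme of the family that releases fatty acids from phospholipids. The gene lies on the minus strand at chr4:109709989-109730070 (GRCh38, ENSG00000123739.11), and GENCODE 44 lists 4 transcripts for it. The coding transcripts PLA2G12A-201 and PLA2G12A-202 are 5219 and 1189 bases long, PLA2G12A-204 is a 755-base transcript classed as a target of nonsense-mediated decay, and PLA2G12A-203 is a 245-base transcript with no defined coding sequence. PLA2G12A-203 has 2 exons, chr4:109718683-109718761 and chr4:109717548-109717713. Its sequence is shown because the length shift of the gene turned on it. The 2 capital letters mark the bases that lie outside the exons of PLA2G12A-201, and the remaining bases are coding sequence of PLA2G12A-201 (5′ to 3′, GENCODE 44 transcripts, GRCh38, minus strand).

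PLA2G12A-203: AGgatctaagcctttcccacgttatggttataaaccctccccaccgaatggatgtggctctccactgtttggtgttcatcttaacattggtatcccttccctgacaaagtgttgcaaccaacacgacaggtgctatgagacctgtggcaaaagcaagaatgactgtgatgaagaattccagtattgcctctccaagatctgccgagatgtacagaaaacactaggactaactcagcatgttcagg

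CACNB1 encodes the beta-1 subunit of voltage-gated calcium channels, an intracellular subunit that helps the pore-forming subunit reach the membrane and shapes its gating. It lies on the minus strand at chr17:39173453-39197702 (GRCh38, ENSG00000067191.17), with 11 listed transcripts of 406 to 5308 bases. Of these, 3 are coding, namely CACNB1-202 (3711 bases), CACNB1-201 (1855 bases) and CACNB1-203 (1753 bases). The longest, CACNB1-206 (5308 bases), is classed as a retained intron. CACNB1-202 leaves the other coding transcripts near the 3′ end, where it is spliced from chr17:39177350 to a last exon at chr17:39173453-39175657, whereas CACNB1-201 and CACNB1-203 continue into the intron and end at chr17:39177136. The lines below show this fork because it sets the longest coding transcript apart from the others. Lower case letters are the shared exon (chr17:39177350-39177379), and capitals are the coding bases after the fork, at chr17:39175628-39175657 in CACNB1-202 and at chr17:39177320-39177349 in CACNB1-203 (5′ to 3′, GENCODE 44 transcripts, GRCh38, minus strand).

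CACNB1-202: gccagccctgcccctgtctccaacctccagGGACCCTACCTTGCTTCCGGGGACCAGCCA
CACNB1-203: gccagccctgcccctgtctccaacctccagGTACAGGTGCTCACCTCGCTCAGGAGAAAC

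**Figure D1:**
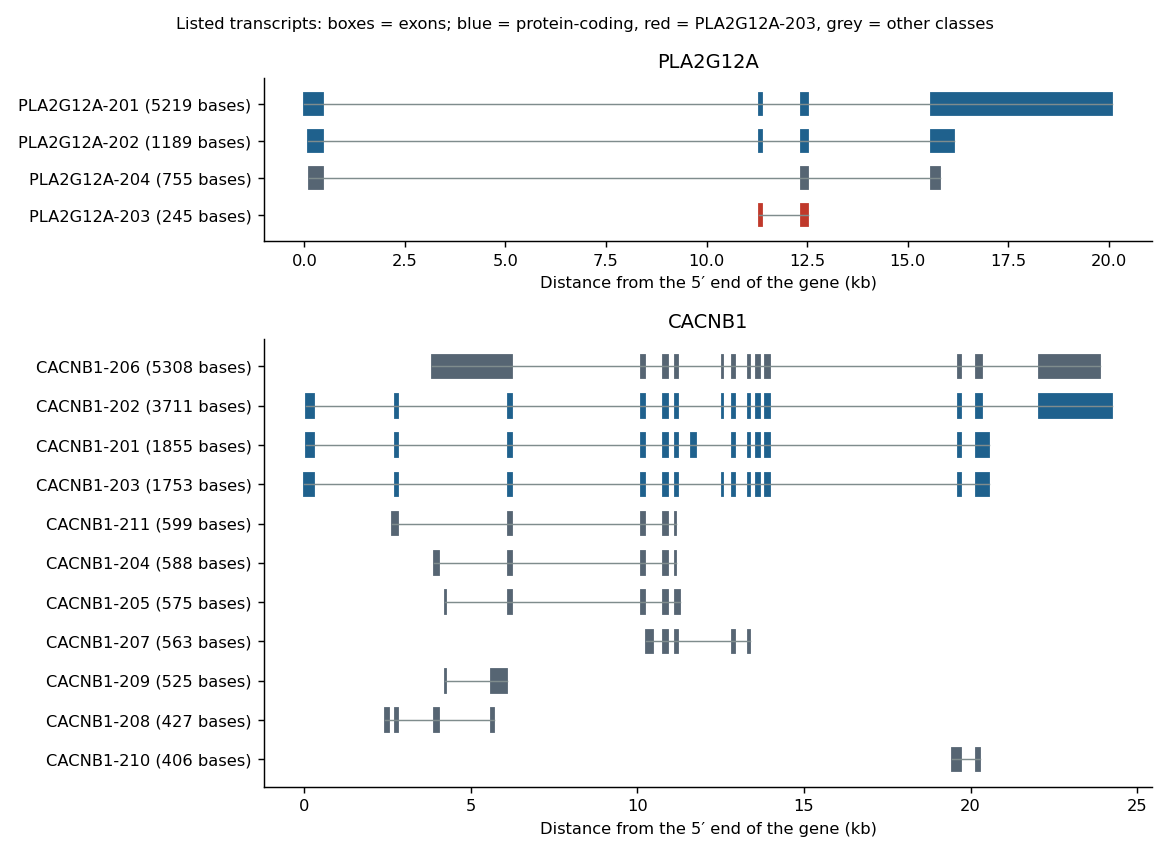
Exon maps of the listed transcripts of PLA2G12A (top, 4 transcripts) and CACNB1 (bottom, 11 transcripts), with the distance from the 5′ end of the gene in kb on the x axis. Boxes are exons, in blue for protein-coding transcripts, red for PLA2G12A-203 and grey for other classes. PLA2G12A-203 covers only a pair of inner exons, and among the coding transcripts of CACNB1 only CACNB1-202 reaches the distal last exon.

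The effective length of PLA2G12A was 2535, 2557 and 3102 bases in ACM 1, 2 and 3, and 1726, 933 and 695 bases in UCM 1, 2 and 3. The groups averaged 2731 ± 321 and 1118 ± 540 bases (SD, n = 3), a ratio of means of 2.44. The closest pair, ACM 1 and UCM 1, stood 1.47-fold apart, while the UCM libraries themselves spanned 2.48-fold. The effective length of CACNB1 was 2687, 2659 and 2672 bases in ACM and 2034, 1914 and 1660 bases in UCM. The ACM libraries lay within 1.01-fold of each other and the UCM libraries within 1.23-fold. The means were 2673 ± 13.6 and 1869 ± 191 bases (SD, n = 3), a ratio of 1.43, with 1.31 between the closest pair, so CACNB1 lay just inside the limit. On RSEM's plain length, PLA2G12A alone reached 1.3-fold. These lengths chose both genes and are given as a description, with no test.

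The genes nearest to the limit on the outside were BCL9, a coactivator of beta-catenin in Wnt signaling, and KCNAB2, a beta subunit of voltage-gated potassium channels. BCL9 was shorter in ACM, at 2729, 2840 and 2776 bases against 3848, 3719 and 3627 bases in UCM, with 1.28 between the closest pair. KCNAB2 was longer in ACM, at 1445, 1738 and 1256 bases against 788, 987 and 802 bases, with a closest-pair ratio of 1.27. The shift of BCL9 ran opposite to that of the other 3 genes.

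**Figure D2:**
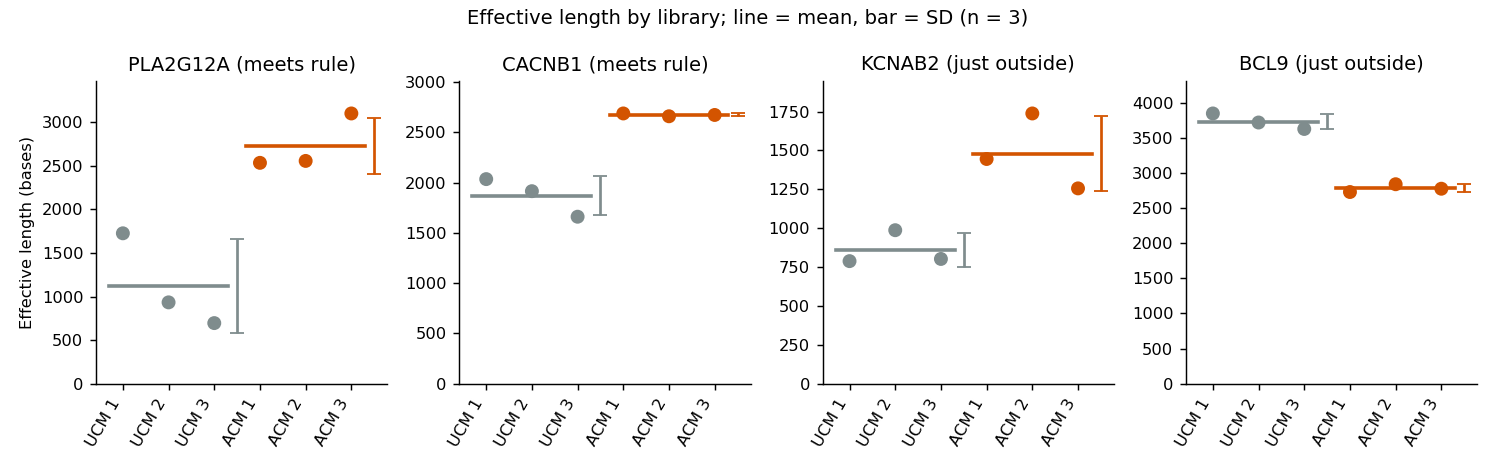
Effective length in bases (y axis, from 0) in each UCM library (grey) and ACM library (orange) for the genes that met the rule, PLA2G12A and CACNB1, and for the nearest genes outside it, KCNAB2 and BCL9. Points are libraries, lines are group means and bars are SD (n = 3). The groups did not overlap in any of the 4 genes, and the 3 UCM values of PLA2G12A ran from 695 to 1726 bases.

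Most protein-coding genes showed no such separation. Across the 10010 genes the median ratio of the ACM mean to the UCM mean was 1.00. All ACM lengths were above all UCM lengths in 585 genes (5.84%) and below them in 412 (4.12%). With a gap of at least 1.1-fold these numbers were 32 and 21, with 1.2-fold 7 and 4, and with 1.5-fold 0 and 0. A ratio of group means of at least 1.3 was less strict and was met by 39 genes that were longer and 38 that were shorter in ACM. Spread within a group was common. The highest length of a group was at least 1.3 times its lowest in 742 genes (7.41%) in ACM and in 788 genes (7.87%) in UCM.

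**Figure D3:**
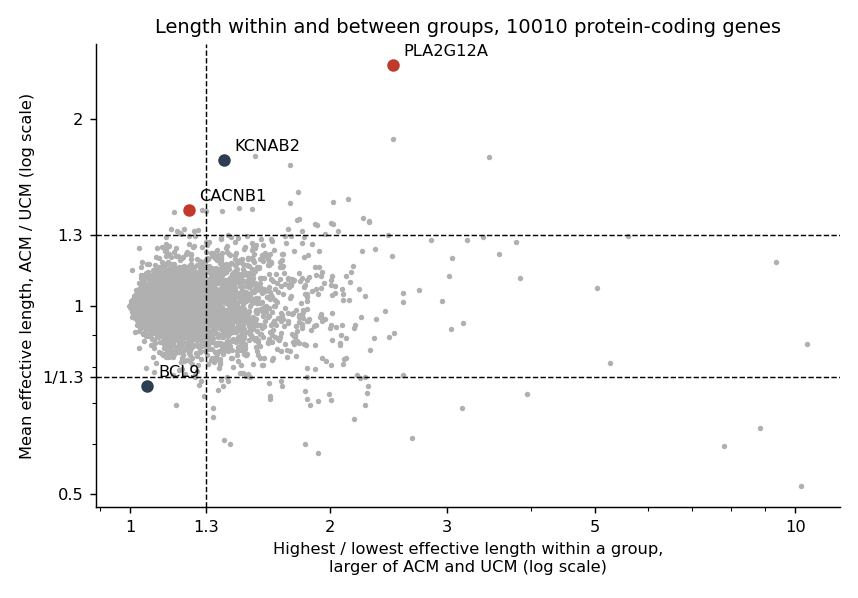
Ratio of mean effective length in ACM to UCM (y axis, log scale) against the highest-to-lowest ratio within a group, the larger of both groups being taken (x axis, log scale), for 10010 protein-coding genes. Dashed lines mark 1.3-fold, red points are the genes that met the rule and dark points the nearest genes outside it. PLA2G12A had a high ratio on both axes, whereas CACNB1 and BCL9 lay to the left of the 1.3 line for spread within a group.

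Both genes had low counts for this set. Fragments assigned to PLA2G12A numbered 304, 192 and 186 in ACM and 303, 327 and 258 in UCM, and fragments assigned to CACNB1 numbered 169, 108 and 130 in ACM and 203, 145 and 112 in UCM. Only 150 of the 10010 genes had a lower mean count than CACNB1, and 1307 (13.1%) had a lower one than PLA2G12A, against a median of 865 counts. The part of depth in the length shifts was not tested. The number of listed transcripts, 4 for PLA2G12A and 11 for CACNB1, lay on either side of the median of 9.

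The length shift of PLA2G12A turned on the 245-base transcript. A transcript shorter than most fragments has very few possible start positions, and the effective length of PLA2G12A-203 was 10.3 to 12.3 bases. Because such a transcript loses less than the usual 276 to 283 bases between length and effective length, its share of the molecules can be worked out from the deposited gene-level lengths. PLA2G12A-203 took 8.42%, 24.4% and 0% of the estimated PLA2G12A molecules in ACM, and 49.5%, 67.5% and 76.7% in UCM. These shares rested on 0.105, 0.201 and 0 fragments in ACM and on 0.894, 2.66 and 3.49 fragments in UCM, out of 186 to 327 fragments of the gene. RSEM splits fragments that fit several transcripts, so these numbers need not be whole, and the most that any library assigned to the transcript was under 4 fragments. The groups did not overlap in these shares, which come from the same lengths as the rule.

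Among the 3 other transcripts of PLA2G12A the difference in length was gone. Their effective length was 2767, 3380 and 3102 bases in ACM and 3404, 2844 and 2944 bases in UCM. The means were 3083 ± 307 and 3064 ± 299 bases (SD, n = 3), a ratio of 1.01, and the groups overlapped. PLA2G12A-201 held 42.2% to 58.8% of the molecules in ACM and 11.7% to 33.2% in UCM, over the bounds that the lengths allow. The bounds on its share of fragments overlapped between groups, from 82.2% to 95.0% in ACM 1 and 2, for example, and from 82.6% to 95.0% in UCM 1 and 2. A transcript of at most 245 bases was listed for 605 of the 10010 genes (6.04%). The loss between length and effective length fell short of the usual value by at least as much as in PLA2G12A, at 33.1 bases in UCM 3, in 30 genes (0.300%).

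**Figure D4:**
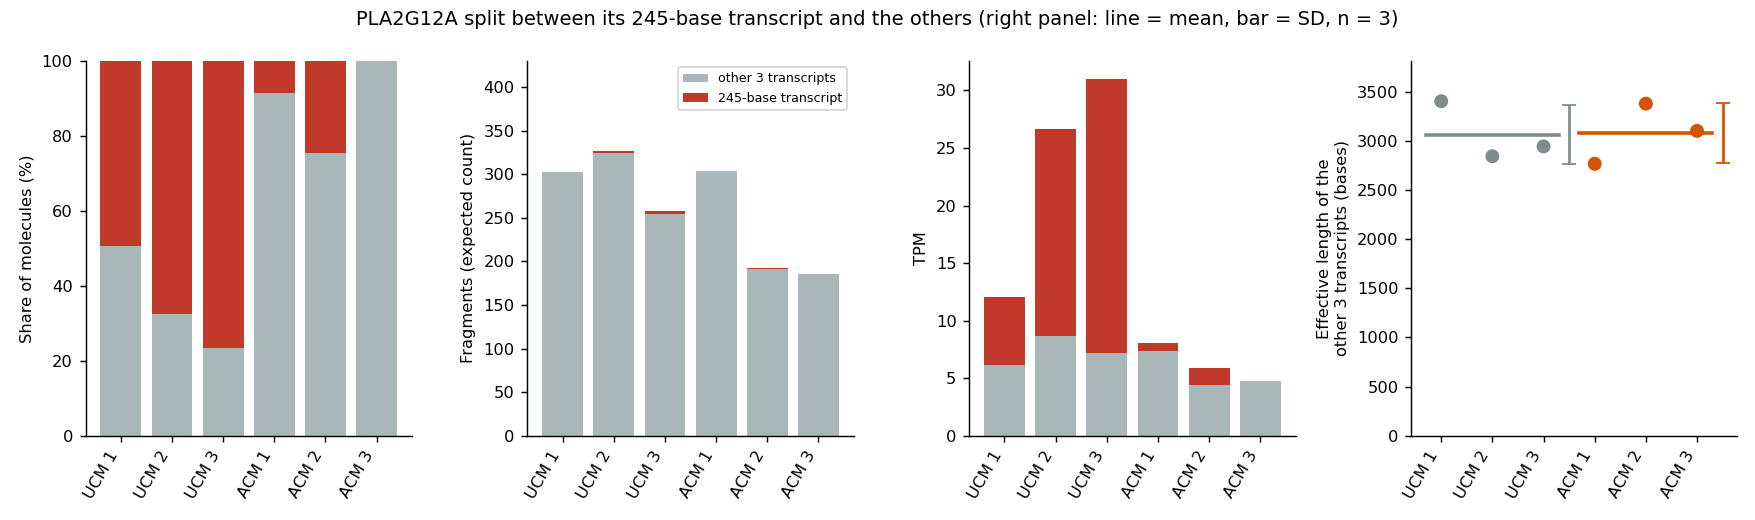
PLA2G12A in each library, split between its 245-base transcript (red) and its 3 other transcripts (grey), as a share of molecules (%), as fragments (expected count) and as TPM. The right panel shows the effective length of the 3 other transcripts in bases, with group means as lines and SD as bars (n = 3). The 245-base transcript is hardly visible in fragments but makes up 49.5% to 76.7% of the molecules in UCM, and the effective lengths at the right overlap between groups.

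The same arithmetic resolved CACNB1 only in part. Its loss between length and effective length fell short of the usual value by 0.11 bases in UCM 1 and UCM 3 and by at most 0.01 bases in the other libraries, beside a tolerance of 0.02 bases. The 3 coding transcripts alone could give the lengths of ACM 1, 2 and 3, with CACNB1-202 at 59.9% to 61.9%, 58.4% to 60.6% and 58.9% to 61.1% of the molecules, and those of UCM 2, with CACNB1-202 at 18.3% to 22.5%. They could not give the lengths of UCM 1 and UCM 3, where at least 5.93% and 8.33% of the molecules had to lie on transcripts under 600 bases, none of which is coding. These lower bounds amount to 0.737 and 0.736 fragments.

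With the 3 coding transcripts and those under 600 bases, CACNB1-202 with the distal last exon could hold 58.4% to 76.8% of the molecules in ACM and 10.9% to 56.8% in UCM. With all 11 transcripts allowed, CACNB1-202 and CACNB1-206 together could hold 31.4% to 76.8% in ACM and 5.85% to 56.8% in UCM, and these ranges overlap. A mixture with the mean ACM length could also give the UCM lengths when 4.16 to 7.42, 5.50 to 7.78 and 4.95 to 8.36 fragments in UCM 1, 2 and 3 lay on transcripts under 600 bases, out of 203, 145 and 112 fragments. As shares of the molecules these fragments amount to 25.3% to 26.6%, 31.1% to 32.2% and 40.7% to 42.6% in UCM 1, 2 and 3. The bounds thus hold both a lower use of the distal last exon and an unchanged mixture to which short transcripts are added at these shares. The parts of these could not be told apart from the gene-level values.

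The smallest share of RSEM's estimated molecules that had to differ between the groups was 32.9% for PLA2G12A and 16.4% for CACNB1. This lower bound takes the move to be between the longest and the shortest listed transcript. For PLA2G12A the estimated shares of the 245-base transcript rested on at most 0.201 fragments in an ACM library and at most 3.49 in a UCM library. BCL9, just outside the limit, has 1 short transcript, the 476-base BCL9-202, whose share was 48.8% to 55.7% in ACM and 29.2% to 40.0% in UCM. That share rested on 11.4 to 18.7 fragments in ACM and 6.80 to 9.08 in UCM, of 337 to 476 fragments for the gene. For KCNAB2, with 48 listed transcripts, the share of transcripts under 500 bases was bounded only to 0% to 81.1% in ACM and 9.18% to 89.4% in UCM.

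In expected counts neither PLA2G12A nor CACNB1 passed the test. PLA2G12A stood at 14.4, 10.8 and 10.1 CPM in ACM and 14.4, 17.6 and 15.0 CPM in UCM. Its means were 11.8 ± 2.33 and 15.7 ± 1.70 CPM (SD, n = 3), and ACM 1 overlapped UCM 1. The log2 FC was −0.41 with a standard error of 0.16, and the adjusted p-value of edgeR's quasi-likelihood test was 0.151. Unadjusted, the p-value from edgeR was 0.0256. CACNB1 stood at 8.03, 6.08 and 7.07 CPM in ACM and 9.62, 7.80 and 6.53 CPM in UCM, and the groups overlapped. Its log2 FC was −0.18 with a standard error of 0.18, and the adjusted p-value from edgeR was 0.618. Of 14451 genes tested with edgeR, 804 passed an adjusted p-value of 0.05 (5.56%), with 484 higher in ACM (3.35%) and 320 lower (2.21%). Against that background, 0 of 2 is no result about these genes.

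In TPM both genes were lower in every ACM library than in every UCM library. PLA2G12A stood at 8.05, 5.85 and 4.71 TPM in ACM and 12.1, 26.6 and 31.0 TPM in UCM, with means of 6.20 ± 1.70 and 23.2 ± 9.91 TPM (SD, n = 3). CACNB1 stood at 4.23, 3.17 and 3.82 TPM in ACM and 6.86, 5.75 and 5.64 TPM in UCM, with means of 3.74 ± 0.535 and 6.08 ± 0.675 TPM (SD, n = 3). Over all tested genes the groups did not overlap in 29.0% by CPM and in 25.6% by TPM, and were lower throughout in ACM in 15.1% and 14.6%. The TPM values are divided by the lengths that chose the genes, so their separation is no independent evidence of a change.

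The difference between the units was close in size to the length shift, as it had to be because TPM is divided by that length. For PLA2G12A the mean of log2(TPM + 1) differed by −1.68 between ACM and UCM, and that of log2(CPM + 1) by −0.39. The change in TPM was lower than the change in CPM by 1.28 on this log2 scale, beside a difference of 1.39 in log2 effective length. For CACNB1 the differences were −0.58 in log2(TPM + 1) and −0.15 in log2(CPM + 1), a gap of −0.43, with a difference of 0.52 in log2 effective length. The values with 1 added understate the change of genes at these low levels. Both units gave the same direction for both genes.

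**Figure D5:**
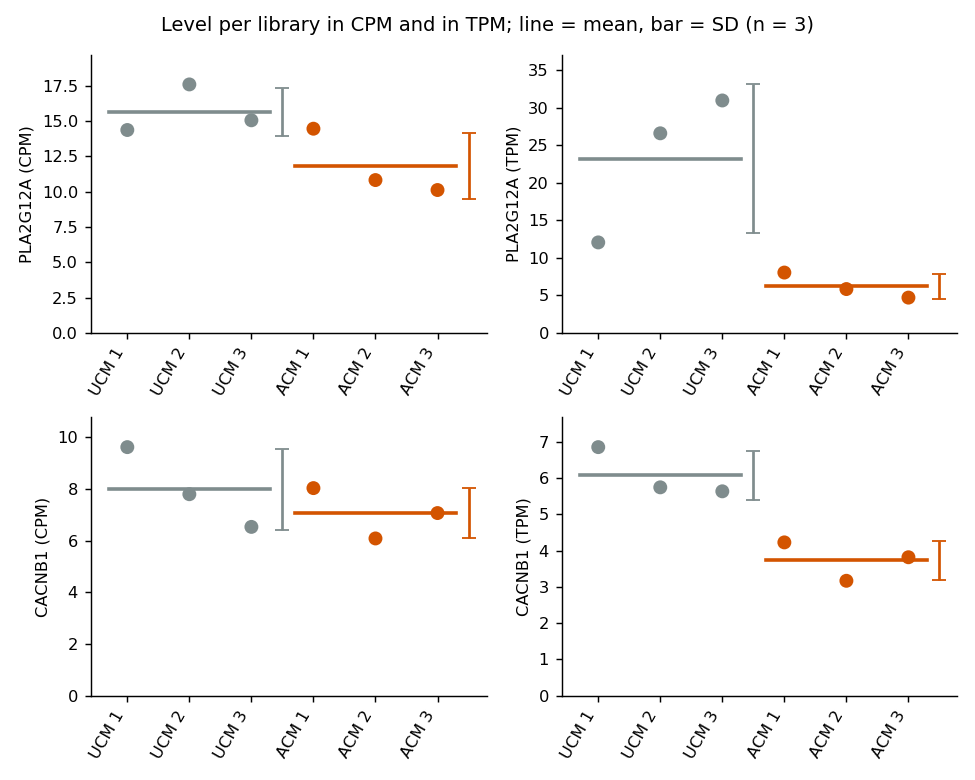
PLA2G12A (top) and CACNB1 (bottom) in each UCM library (grey) and ACM library (orange), in CPM at the left and in TPM at the right, with y axes from 0. Lines are group means and bars are SD (n = 3). The groups overlap in CPM for both genes and are separate in TPM.

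The call for PLA2G12A with length offsets depended on whether the 245-base transcript entered its length. DESeq2 with the effective lengths as offsets, which tests counts per length, gave a log2 FC of −1.86 with a standard error of 0.31 and an adjusted p-value of 3.79e-07. When the same DESeq2 fit used the length of the 3 other transcripts for PLA2G12A, the log2 FC was −0.39 with a standard error of 0.24 and the adjusted p-value was 0.386. These lengths had a ratio of group means of 1.01, so the estimate was bound to lie near that from counts. DESeq2 without length offsets gave −0.40. The fit with the lengths of the 3 other transcripts was chosen after seeing the data and is no independent support. Without the 245-base transcript PLA2G12A stood at 7.37, 4.42 and 4.71 TPM in ACM and 6.10, 8.66 and 7.22 TPM in UCM, which overlap. The transcript alone made up 0.678, 1.43 and 0 TPM in ACM and 5.97, 18.0 and 23.8 TPM in UCM. For CACNB1 DESeq2 with length offsets gave a log2 FC of −0.67 with a standard error of 0.22 and an adjusted p-value of 0.0390. Limma-trend on log2(TPM + 1) gave adjusted p-values of 0.0405 for PLA2G12A and 0.0919 for CACNB1. These tests also use the lengths of the rule, and over all 14451 genes DESeq2 with offsets called 6.84% (2.44% lower in ACM) and limma-trend on log2(TPM + 1) called 2.51% (0.913% lower).

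In the nearest genes outside the limit the sign of the estimate differed between the units, although neither gene passed a test in both directions. KCNAB2 stood at 9.36, 12.1 and 9.24 CPM in ACM and 5.92, 7.04 and 5.89 CPM in UCM. It rose in counts with a log2 FC of 0.70, a standard error of 0.16 and an adjusted p-value of 0.0370 from edgeR, and the call was lost without any 1 of the libraries other than UCM 1 (adjusted p-values of 0.0513 to 0.145 from edgeR). In TPM KCNAB2 stood at 9.17, 9.60 and 10.6 in ACM and 10.9, 10.1 and 10.5 in UCM, and with length offsets its log2 FC was −0.069 (adjusted p-value of 0.914 from DESeq2). BCL9 had a log2 FC of −0.18 in counts with an adjusted p-value of 0.351 from edgeR, and 0.26 with length offsets with an adjusted p-value of 0.330 from DESeq2. In BCL9 the 3 ACM libraries had 11.4, 9.25 and 9.96 TPM and the UCM libraries 8.50, 9.18 and 8.44 TPM.

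Genes that overlap on the genome can exchange fragments in counting. PLA2G12A overlaps ENSG00000285330, a protein-coding gene on the same strand, which had 1.45 counts in ACM 1 and 0 in the other libraries. CACNB1 overlaps the antisense lncRNA ENSG00000266101, which had 0 counts in every library. Whether the libraries kept strand information is not given in the sources used here.

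Genes that act in choosing 3′ ends and exons, and in removing aberrant transcripts, were compared in counts. At an adjusted p-value of 0.05, edgeR called 5.56% of all genes. Of 23 cleavage and polyadenylation factors tested with edgeR, 0 rose and 0 fell, with 4 at an unadjusted p-value under 0.05, and their median log2 FC was −0.12 with 18 genes below 0. Of 48 SR proteins and other splicing regulators 45 were tested, 0 rose and 0 fell, with 14 at an unadjusted p-value under 0.05 in edgeR and a median of −0.12 with 37 genes below 0. DESeq2 called 4 of the splicing regulators, and 8.38% of all genes. Of 19 nonsense-mediated decay genes 0 rose and 1 fell, with 3 at an unadjusted p-value under 0.05 in edgeR and a median of −0.092 with 16 genes below 0. The median over all 14451 genes was −0.011. The shares of all genes at an unadjusted p-value under 0.05 in edgeR, and of all genes below 0, are not given here. The counts of these kinds are therefore not read as a result about the lists. The gene that fell was PNRC2, which links decay factors to decapping, at 89.7, 90.1 and 90.8 CPM in ACM and 108, 114 and 114 CPM in UCM. Its log2 FC was −0.31 with a standard error of 0.064 and an adjusted p-value of 0.0217 from edgeR. The call was lost without ACM 2, ACM 3, UCM 2 or UCM 3 (adjusted p-values of 0.0510 to 0.129 from edgeR), with length offsets (0.182 from DESeq2) and with limma on log2(TPM + 1) (0.257). The effective lengths of the groups did not overlap in 2 of 23, 11 of 45 and 3 of 19 genes of the 3 lists, beside 5.84% longer and 4.12% shorter over the 10010 genes, and reached a gap of 1.1-fold in 0, 1 and 0 of them.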

How the data were processed

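Poly(A)-selected RNA of BT-549 cells was sequenced by the authors as paired reads from 3 ACM and 3 UCM libraries. According to the paper and the submitters' processing notes, Trim Galore was used for trimming, STAR for alignment to GRCh38 and RSEM for quantification. Tool versions and the gene annotation are not given in the sources used here. For each gene and library the authors deposited an expected count, not scaled for depth, a TPM, a length and an effective length. A deposited table of the authors' own log2 fold changes with their p-values and Wald score was not used.

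Identifiers were looked up in GENCODE 44, where 62541 of 63140 were found (61547 with the same version). All 39264 single-transcript genes found there had the same length in both. Libraries held 17135288 to 21053257 counts. Expected counts were rounded and tested on 14451 genes that passed filterByExpr, with R 4.3.3 and edgeR 4.0.16 (TMM, robust quasi-likelihood, condition only, Benjamini-Hochberg). The biological coefficient of variation was 0.115. CPM was computed from the rounded expected counts and the library total of the tested genes, scaled by the TMM factors. Shares of transcripts were bounded by linear programming (SciPy 1.17.1) from length and effective length, with a tolerance of 0.02 bases, and scripts were tested on simulated data. DESeq2 1.42.0 and limma 3.58.1 served as alternatives, along with other filters, thresholds, a replicate block and leaving out each library.

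Named were the members, the 2 genes nearest outside the limit and, of each list, up to 3 called genes. The members and lists were chosen with earlier results of these data known. Markers, overlapping genes and the genes added by other thresholds were named as checks.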

Additional observations from a re-analysis of the deposited data

How the results depend on the processing

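The number of genes with a length shift depended on the limits. With a ratio of 1.2 there were 7 longer and 4 shorter in ACM, with 1.5 there were 0 longer, with at least 50 counts 4 longer (IL6R at 1.95 and HECW2 at 1.33 were added) and with at least 200 counts 0. On RSEM's length column 1 remained, PLA2G12A at 1.42, and without its 245-base transcript, an alternative chosen after seeing the data, 1 was left, CACNB1. Leaving out each library gave 3 to 12 longer (12 without UCM 1) and 2 to 8 shorter genes (8 without ACM 2). Both members were among the longer genes each time, which the rule fixes in advance because fewer libraries have to agree. Genes called higher and lower in counts (484 and 320) were 764 higher with DESeq2, 1045 and 679 with at least 1 count in total, 230 and 132 with limma on log2(TPM + 1), 234 and 138 with 0.1 added, and 125 to 738 and 62 to 572 without each library. The lowest counts came without UCM 2 (125 higher) and without UCM 3 (62 lower) and the highest without UCM 1. Same-numbered replicates correlated at 0.397, 0.023 and 0.280 in their deviations. ACM 1 and ACM 2 correlated best with the UCM library of their own number, and ACM 3 with UCM 2 (0.301). These values do not settle whether the numbers pair the samples, and the main fit used condition only. A replicate block gave 909 higher and 703 lower genes of 14451, with 5 of 45 splicing regulators, 3 of 19 decay genes and 0 of the members. The members called numbered 2 with length offsets, 1 with limma at each pseudocount and 1 with offsets without the 245-base transcript. The splicing list had 4 genes called with DESeq2, 1 with at least 1 count and 0 to 1 without each library. The decay list had 2 with at least 1 count, 0 with offsets and with limma at each pseudocount, and 0 to 2 without each library. With the block, with DESeq2 and with at least 1 count, more genes were called among all genes as well. These list counts are therefore not read as a result about the lists. KCNAB2 reversed to −0.069 with offsets and to −0.092 and −0.10 with limma, and BCL9 to 0.26, 0.21 and 0.22, since these divide by length. Over the alternatives in counts, the adjusted p-value of PLA2G12A ranged from 0.0577 to 0.436 and that of CACNB1 from 0.482 to 0.977 (all from edgeR). The lower values of 3.79e-07 and 0.0390 came from DESeq2 with length offsets, which divides by the lengths that chose the genes. Limma on TPM also divides by these lengths. For PNRC2 the adjusted p-value ranged from 0.00409 (DESeq2 on counts) to 0.267 (limma on TPM). The log2 FC in counts without each library was −0.57 to −0.31 for PLA2G12A and −0.29 to −0.011 for CACNB1, and the gap between TPM and CPM changes −1.62 to −1.01 and −0.48 to −0.36. The members had 108 to 327 fragments per gene and library, and the part of depth in these values was not tested.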
